A study of Mus musculus with 44 samples.

Results

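Enzyme genes that inactivate, convert or conjugate steroids were followed in mouse ovarian follicles exposed to perfluorononanoic acid (PFNA, a perfluorinated surfactant that persists in the environment). The 10 genes were taken by symbol from a list of steroid-inactivating and converting enzymes: Hsd17b11, Hsd11b1, Hsd11b2, Akr1c18, Akr1b7, Akr1c14, Srd5a1, Srd5a3, Cyp1b1 and Sult1e1. All 10 were present in both gene tables, out of 24220 gene symbols in either table. RNA of follicles of wild-type CD-1 mice, an outbred stock, was sequenced in 2 windows, each with its own controls. In the maturation window 11 control libraries came from follicles given the solvent DMSO and 10 libraries from follicles given PFNA. In the ovulation window 12 control libraries came from follicles given hCG, the gonadotropin that acts on the luteinizing hormone receptor and sets off ovulation, and 11 libraries from follicles given hCG together with PFNA. The hCG was thus common to both ovulation groups, and no ovulation library without it was analysed here. Maturation control number 4 was not analysed here. Neither the dose, the hours of exposure, the age of the animals nor the pooling of follicles is stated in the labels, and nothing in them says whether libraries of a group came from separate animals or cultures, so p-values measure only the spread between these libraries, which may be technical.

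Steroid hormones are made in the follicle by theca and granulosa cells together, and the amount that reaches a receptor depends on removal as well as on synthesis. Enzymes of the short-chain dehydrogenase and aldo-keto reductase families oxidize or reduce a hydroxyl or keto group of the steroid and so switch a hormone between an active and an inactive form. Sulfotransferases attach a sulfate, which keeps the steroid from binding its receptor, and cytochromes P450 add hydroxyl groups. Around ovulation the follicle changes over from oestrogen to progesterone production, and local conversion of glucocorticoids by the paired 11-beta-hydroxysteroid dehydrogenases is known to shift at that time.

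Of the 5 genes whose groups did not overlap in the ovulation window, the promoters of 4 are shown, 2 that fell and 2 that rose; Hsd11b2 has no entry in the sequence table. The sequences are from RefSeq on GRCm38.p6, read 5′ to 3′ on the strand of the gene. They give the part of the 250 bases before the RefSeq start that lies outside the exons of GENCODE M21. Capitals mark a match to one of the motifs searched. The 2 genes that fell are Sult1e1 (chr5:87591612-87591861, minus strand) and Akr1b7 (chr6:34412112-34412333, plus strand). The 2 that rose are Hsd17b11 (chr5:104021920-104022046, minus strand) and Akr1c14 (chr13:4059341-4059540, plus strand). The RefSeq start used for Akr1c14 lies well inside the gene as placed by GENCODE M21, which begins at 4049011, so its sequence precedes an internal start.
Sult1e1: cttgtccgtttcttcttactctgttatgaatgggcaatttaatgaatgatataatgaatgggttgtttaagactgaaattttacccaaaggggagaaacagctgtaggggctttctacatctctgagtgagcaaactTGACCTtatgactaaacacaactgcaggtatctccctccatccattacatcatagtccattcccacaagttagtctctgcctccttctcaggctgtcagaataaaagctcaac
Akr1b7: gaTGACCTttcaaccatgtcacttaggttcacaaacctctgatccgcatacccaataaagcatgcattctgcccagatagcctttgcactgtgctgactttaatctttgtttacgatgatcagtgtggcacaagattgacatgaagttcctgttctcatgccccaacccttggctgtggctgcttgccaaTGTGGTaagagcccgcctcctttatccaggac
Hsd17b11: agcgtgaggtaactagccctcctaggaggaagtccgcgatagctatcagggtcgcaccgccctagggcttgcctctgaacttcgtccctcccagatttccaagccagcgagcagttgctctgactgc
Akr1c14: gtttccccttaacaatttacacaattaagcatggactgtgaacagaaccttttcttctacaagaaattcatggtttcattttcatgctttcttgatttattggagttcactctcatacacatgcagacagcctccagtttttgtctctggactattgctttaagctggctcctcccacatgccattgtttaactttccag

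A set of 7 motifs was searched on both strands in the 250 bases before the RefSeq start of the 9 genes that had an entry. For Akr1c14 and Hsd11b1 that start lies well inside the gene as placed by GENCODE M21. The nuclear receptor half-site AGGTCA was found, as TGACCT on the opposite strand, in Sult1e1 at 113 to 108 bases before the start and in Akr1b7 at 248 to 243 bases before it, and 14.0% of 32851 promoters of the same length hold it. Akr1b7 also held the RUNX motif TGTGGT at 60 to 55 bases before the start, which 14.0% of promoters hold. Hsd17b11 held a C/EBP match, TTGCTTAA, at 28 to 21 bases before the RefSeq start, in the part that GENCODE annotates as exon, and 9.56% of promoters hold TTGCNNAA. Srd5a3 held the cAMP response half-site TGACG on the opposite strand at 41 to 37 bases before the start, which 17.8% of promoters hold. The AP-1 motif TGANTCA (6.75% of promoters), the TATA motif TATAAA (12.4%) and 2 half-sites a base apart, AGGTCANAGGTCA (0.0335%, overlapping the half-site search), were in none of the 9. These matches describe letters in a window and are not evidence of binding.

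Libraries of the ovulation window held 12 to 16 (in units of 1e+06 counts) in controls and 10.6 to 19.5 with PFNA, and their levels are given as CPM (counts relative to the library total) after TMM scaling. Levels of the maturation window are in TPM (transcript abundance per length, relative to the library total), for which the depth is unknown, and levels were not compared across windows. All 7 granulosa markers were at or above a mean of 1 in every group, and no defining marker of granulosa, theca and stroma, or oocyte was at 0 in every library. In the maturation window the summed granulosa markers were 36290 to 56150 TPM in controls and 12340 to 41500 TPM with PFNA, with 6 of 7 lower. Summed oocyte markers were 129.9 to 199 TPM in controls. With PFNA they were 136.1 and 123.2 TPM in replicates 1 and 2, 344.7 TPM in replicate 10 and 0.268 to 2.27 TPM in the other 7, and all 9 oocyte markers tested were lower. In these sums PFNA replicates 1 and 2 stood near the controls, and results for the enzymes that move with them are given with and without them. Leaving out PFNA libraries that stand near the controls can by itself widen a difference and lower its p-value. Of all genes tested 29.4% passed with these libraries and 37.9% without them, so results without them are not separate support. Replicate 10, whose oocyte sum lay above all controls, was kept. Fewer cells of a type and less RNA per cell cannot be told apart in such libraries.

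In the ovulation window 7 of the 9 enzyme genes tested differed between PFNA and control libraries, 5 higher and 2 lower. Hsd17b11, Hsd11b2 and Akr1c14 rose between 4.70-fold and 15.3-fold, Srd5a3 and Cyp1b1 rose less, and Akr1b7 and Sult1e1 fell 29.0-fold and 28.6-fold. Akr1c18 and Srd5a1 did not pass the test, and Hsd11b1 was too low to be tested. The share of all 13441 genes tested that passed was 73.2% (38% higher and 35.2% lower), so the 77.8% among the enzymes was near the background. The median absolute log2 fold change was 2.23 among the 9 enzymes and 0.575 among all genes. The enzymes were chosen with earlier results of these data known, so such comparisons with all genes are not a test of the set. The groups did not overlap for 3 higher and 2 lower enzymes, against 11.9% and 14.1% of all genes (26% in either direction). With at least 2-fold asked as well, 6 enzymes and 27.1% of all genes passed.

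**Figure D1:**
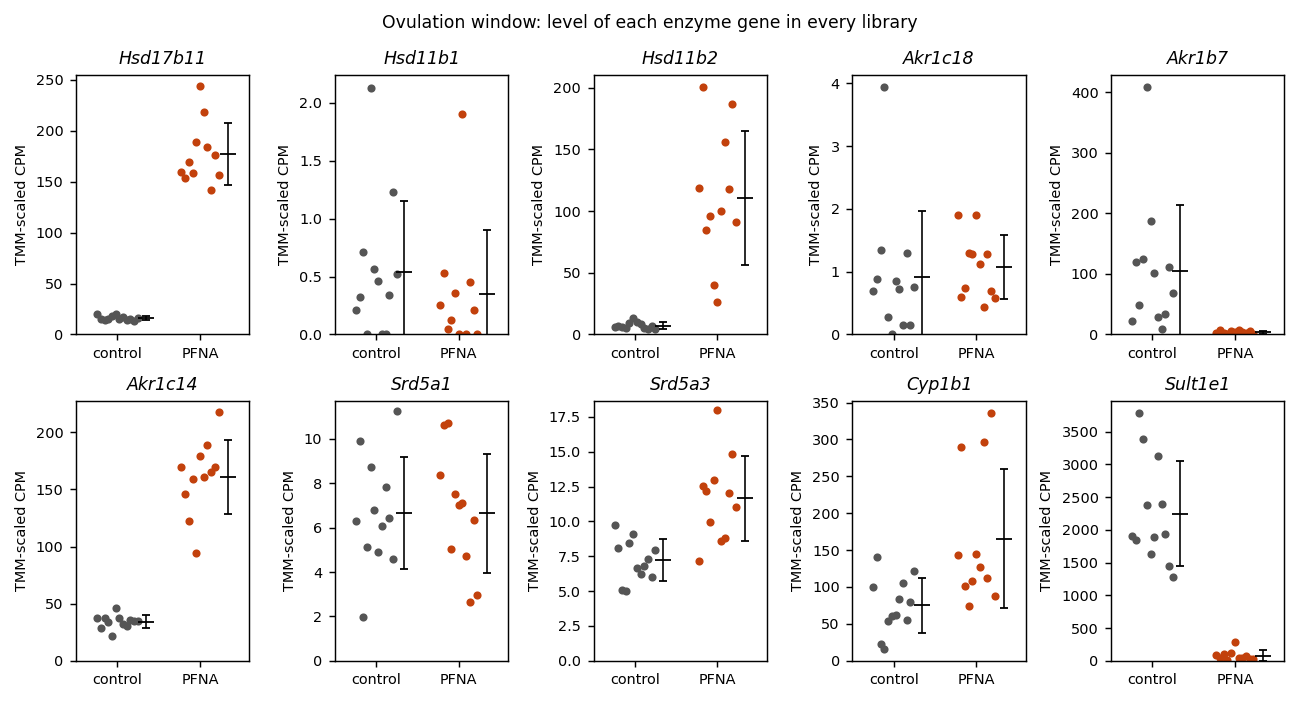
Level of each enzyme gene in the 12 control and 11 PFNA libraries of the ovulation window, in TMM-scaled CPM on axes that start at 0. Each point is a library, and the bar beside each group gives the mean and SD. Hsd17b11, Hsd11b2 and Akr1c14 lay above all controls and Akr1b7 and Sult1e1 below all controls in 11 of 11 PFNA libraries.

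The largest falls were in Sult1e1 and Akr1b7. Sult1e1 (chromosome 5, 87575969 to 87591594, minus strand, GRCm38) encodes the oestrogen sulfotransferase, which inactivates oestradiol by sulfation. It ranged from 1275 to 3783 CPM in controls, with a median of 1921 CPM, and from 9.71 to 292 CPM with PFNA, with a median of 48.1 CPM. Every PFNA library was below the lowest control, and PFNA replicate 6 was the highest of them. It fell from a control mean of 2250 ± 796 CPM (SD, n = 12) to a mean of 78.8 ± 78.9 CPM with PFNA (SD, n = 11), with a log2 fold change of -4.84 ± 0.453 (SE; adjusted p = 1.0e-09 by edgeR).

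Akr1b7 (chromosome 6, 34412334 to 34423142, plus strand) encodes an aldo-keto reductase of steroidogenic tissue that reduces the aldehyde released when the side chain of cholesterol is cleaved. Controls spanned 8.30 to 409 CPM, with a median of 84.8 CPM. PFNA libraries spanned 0.184 to 7.74 CPM, with a median of 3.29 CPM. The control libraries were widely spread, replicate 5 the highest and replicate 9 the lowest, yet the lowest control lay above the highest PFNA library. The log2 fold change was -4.86 ± 0.588 (SE; adjusted p = 7.8e-08 by edgeR), from a control mean of 105 ± 109 CPM (SD, n = 12) to a mean of 3.65 ± 2.43 CPM with PFNA (SD, n = 11). A pseudogene, Gm13857, overlaps an exon of Akr1b7 on the opposite strand, and 2.52% of the 50-base stretches of Akr1b7 transcripts occur in other genes, so a small part of its counts is uncertain.

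Hsd17b11 (chromosome 5, 103989762 to 104021919, minus strand) encodes an oxidative hydroxysteroid dehydrogenase of lipid droplets that converts androstanediol to androsterone. It was the enzyme gene with the smallest p in this window. Controls held 12.8 to 19.99 CPM with a median of 14.97 CPM, and PFNA libraries 141 to 244 CPM with a median of 170 CPM. The groups were far apart and both were narrow, with coefficients of variation of 13.9% in controls and 17.2% with PFNA. It rose from a control mean of 16.0 ± 2.23 CPM (SD, n = 12) to a mean of 177 ± 30.5 CPM with PFNA (SD, n = 11), which is a log2 fold change of 3.47 ± 0.0950 (SE; adjusted p = 7.5e-20 by edgeR). Over all 23 libraries the genes with the profile most like it were Hspa1b (Pearson r = 0.992), Calhm4 (r = 0.991) and Jun (r = 0.991), as a description of libraries that fall into both groups. Hspa1b has a near-identical copy and its own level is uncertain.

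Of the paired dehydrogenases that set the local level of active glucocorticoid, Hsd11b2 rose and Hsd11b1 stayed near the detection limit. Hsd11b2 (chromosome 8, 105518755 to 105523988, plus strand) oxidizes corticosterone to an inert ketone. Controls held 4.57 to 13.0 CPM with a median of 6.28 CPM, and PFNA libraries 26.4 to 201 CPM with a median of 100 CPM. PFNA replicates 6 and 5 were the lowest of their group, at 26.4 and 40.1 CPM, and still above the highest control. It rose from a control mean of 7.20 ± 2.62 CPM (SD, n = 12) to a mean of 111 ± 54.4 CPM with PFNA (SD, n = 11), which is 3.94 ± 0.287 on the log2 scale (SE; adjusted p = 1.2e-11 by edgeR). Hsd11b1 (chromosome 1, 193221634 to 193264075, minus strand), the reductase that regenerates corticosterone, held 0 to 2.13 CPM in controls and 0 to 1.90 CPM with PFNA, with 3 libraries at 0 in each group. The 2 groups overlapped over nearly their whole range, and without the filter on low counts its log2 fold change was -0.65 (edgeR adjusted p = 0.45). A ratio of Hsd11b1 to Hsd11b2 was not tested because Hsd11b1 averaged under 1 CPM in both groups.

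Among the other aldo-keto reductases of the set, Akr1c14 rose and Akr1c18 did not pass the test. Akr1c14 (chromosome 13, 4049011 to 4090688, plus strand) encodes a 3-alpha-hydroxysteroid dehydrogenase that reduces dihydrotestosterone and dihydroprogesterone. Its level was 22.1 to 45.8 CPM in controls, with a median of 34.7 CPM, and 94.3 to 218 CPM with PFNA, with a median of 165 CPM. No PFNA library overlapped the controls, and the log2 fold change was 2.23 ± 0.115 (SE; adjusted p = 1.1e-14 by edgeR), from a control mean of 34.3 ± 5.81 CPM (SD, n = 12) to a mean of 161 ± 32.6 CPM with PFNA (SD, n = 11). A pseudogene on the same strand, Gm18857, shares 5.8% of its 50-base stretches. Akr1c18 (chromosome 13, 4132615 to 4150654, minus strand), the 20-alpha-hydroxysteroid dehydrogenase that inactivates progesterone at the end of the luteal phase, averaged 0.922 ± 1.05 CPM (SD, n = 12) in controls and 1.08 ± 0.516 CPM (SD, n = 11) with PFNA. Control replicate 4 was the highest library of either group at 3.94 CPM, and the groups overlapped (adjusted p = 0.64 by edgeR, log2 fold change 0.25 ± 0.479, SE).

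The 2 reductases named for the 5-alpha position differed from each other in their call. Srd5a3 (chromosome 5, 76140271 to 76155504, plus strand), better known for making dolichol for protein glycosylation, was at 5.02 to 9.75 CPM in controls, with a median of 7.05 CPM, and at 7.18 to 18.0 CPM with PFNA, with a median of 12.1 CPM. The groups overlapped, with 8 of 11 PFNA libraries above all controls, and the log2 fold change was 0.69 ± 0.145 (SE; adjusted p = 1.4e-04 by edgeR). Srd5a1 (chromosome 13, 69573449 to 69611442, minus strand), which reduces testosterone and progesterone, held 6.66 ± 2.52 CPM (SD, n = 12) in controls and 6.64 ± 2.70 CPM (SD, n = 11) with PFNA. Its groups covered the same range (edgeR adjusted p = 0.99), and Gm17108, annotated over it on the same strand, shares 15.1% of its 50-base stretches. The difference between these 2 genes was not tested.

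Cyp1b1 (chromosome 17, 79701537 to 79715061, minus strand) encodes a cytochrome P450 that hydroxylates oestradiol and is a target of the aryl hydrocarbon receptor. Controls held 15.9 to 140 CPM with a median of 70.8 CPM, and PFNA libraries 73.9 to 336 CPM with a median of 127 CPM. PFNA replicates 2, 8 and 10 stood apart at 289 to 336 CPM, the other 8 lay at 73.9 to 145 CPM, and 5 of 11 were above all controls. The log2 fold change was 1.14 ± 0.316 (SE; adjusted p = 0.0024 by edgeR). Markers of other cell types also moved. Summed theca and stroma markers were 129.7 to 736.5 CPM in controls and 484.2 to 1206 CPM with PFNA (6 of 10 higher and 2 lower), and summed endothelial markers 29.5 to 121 CPM and 39.0 to 360 CPM (5 of 5 higher). Of the granulosa markers 5 of 7 were higher and 1 lower (sums of 6346 to 8866 and 5362 to 8928 CPM), and of the oocyte markers 4 of 9 were higher (71.2 to 286 and 8.14 to 436 CPM). Their part in the rise of Cyp1b1 and in the other ovulation changes was not tested.

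During maturation 2 of the 6 enzyme genes tested passed, Hsd17b11 higher and Hsd11b2 lower. Of all 13712 genes tested 29.4% passed (13.3% higher and 16.1% lower), and 33.3% of the enzymes tested did. The groups overlapped for all 6, as they did for all but 1.28% of genes (0.489% with PFNA higher and 0.788% with PFNA lower). With at least 2-fold asked as well, 1 enzyme and 4.77% of all genes passed. Without PFNA replicates 1 and 2, 4 enzymes and 37.9% of all genes passed. The median log2 fold change was -0.075 among the enzymes and 0.0227 among all genes. The other 4 enzymes, Hsd11b1, Akr1c18, Akr1b7 and Sult1e1, averaged under 1 TPM over the libraries and were not tested.

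**Figure D2:**
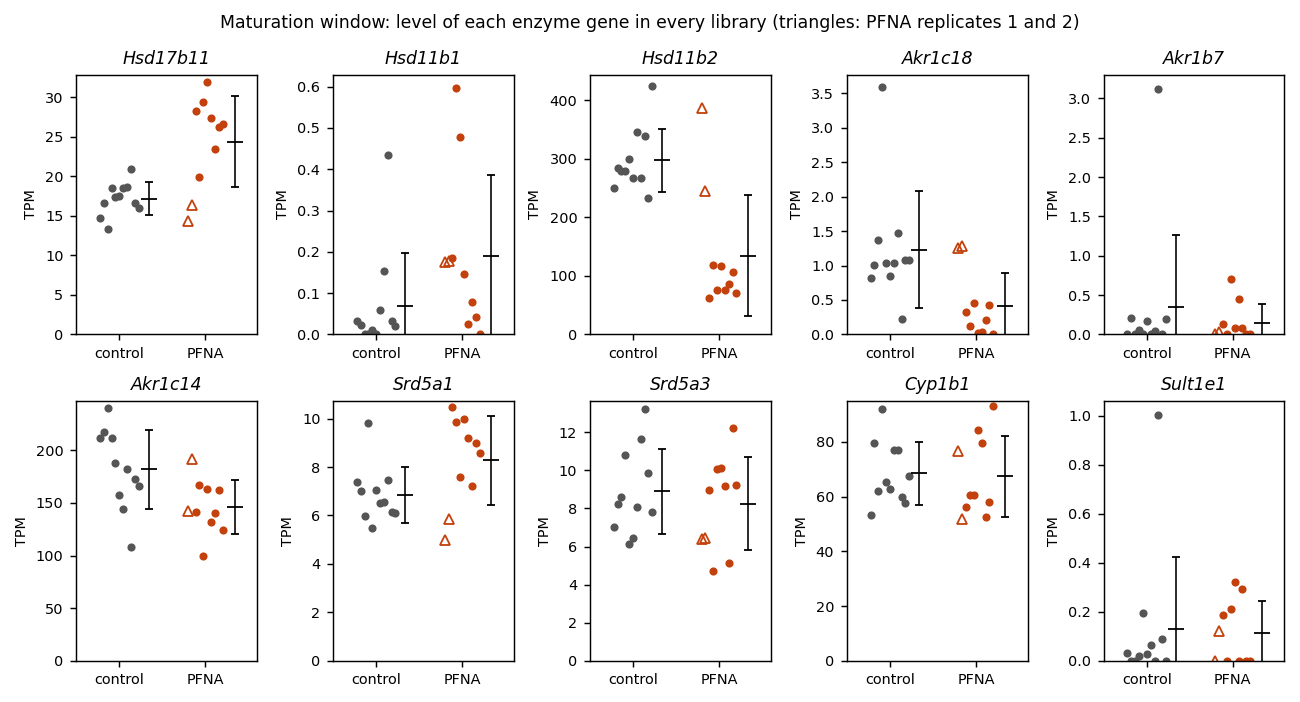
Level of each enzyme gene in the 11 control and 10 PFNA libraries of the maturation window, in TPM on axes that start at 0. Each point is a library, triangles mark PFNA replicates 1 and 2, and the bar beside each group gives the mean and SD. For Hsd11b2 the triangles lay among the controls and the other 8 PFNA libraries below all of them.

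Hsd11b2 was at 234 to 425 TPM in controls, with a median of 280 TPM, and at 61.6 to 387 TPM with PFNA, with a median of 96.3 TPM. PFNA replicates 1 and 2, at 387 and 246 TPM, lay within the control range, and the other 8 lay at 61.6 to 119 TPM, below every control. The mean was 298 ± 54.0 TPM (SD, n = 11) in controls and 135 ± 103 TPM (SD, n = 10) with PFNA, and the log2 fold change was -1.38 ± 0.25 (SE; adjusted p = 3.1e-04 by limma) on the log2(TPM + 1) scale. Without replicates 1 and 2 it was -1.74 (limma adjusted p = 3.1e-09), and the groups then did not overlap, as for 8.61% of all genes. These were the only PFNA libraries within the control range, so that separation follows from leaving them out. The summed granulosa markers were 12340 to 27590 TPM in the same 8 libraries, below every control, and their part in the fall of Hsd11b2 was not tested. Over all 21 libraries the profiles most like that of Hsd11b2 were those of Sema3g (Pearson r = 0.953), Pomt1 (r = 0.951) and Slc7a6 (r = 0.949), again as a description.

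Hsd17b11 was at 13.4 to 20.9 TPM in controls, with a median of 17.4 TPM, and at 14.4 to 31.9 TPM with PFNA, with a median of 26.4 TPM. The lowest 2 PFNA libraries were again replicates 1 and 2, and 7 of 10 were above all controls. The log2 fold change was 0.45 ± 0.118 (SE; adjusted p = 0.0062 by limma), and without those libraries 0.60 (limma adjusted p = 1.4e-05). Akr1c14 held 182 ± 37.7 TPM (SD, n = 11) in controls and 146 ± 25.9 TPM (SD, n = 10) with PFNA, with a log2 fold change of -0.30 (limma adjusted p = 0.071). It passed without replicates 1 and 2 (-0.35, limma adjusted p = 0.040), without PFNA replicate 2 alone (-0.35, adjusted p = 0.035) and without control replicate 10, the lowest control (-0.37, adjusted p = 0.013).

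Srd5a1 held 6.86 TPM on average in controls and 8.27 TPM with PFNA, with a log2 fold change of 0.22 (limma adjusted p = 0.13). It passed without PFNA replicates 1 and 2 (0.35, limma adjusted p = 0.0041) and without replicate 1 alone (0.29, adjusted p = 0.027). Srd5a3 (8.89 TPM in controls and 8.24 TPM with PFNA, limma adjusted p = 0.61) and Cyp1b1 (68.5 and 67.4 TPM, limma adjusted p = 0.84) overlapped between the groups and did not pass. Akr1c18 was listed at 1.23 ± 0.844 TPM (SD, n = 11) in controls and 0.414 ± 0.482 TPM (SD, n = 10) with PFNA, where replicates 1 and 2, at 1.26 and 1.29 TPM, were the highest; without them the PFNA mean was 0.199 ± 0.186 TPM (SD, n = 8). With no filter on low values its log2 fold change over all 10 PFNA libraries was -0.65 (limma adjusted p = 0.020). Akr1b7 and Sult1e1 were highest in control replicate 10, at 3.12 and 1.002 TPM, and every other library was at or below 0.71 TPM for both. Hsd11b1 did not exceed 0.596 TPM in any library.

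The PFNA effect differed between the windows for 5 of the 6 enzymes tested in both, as it did for 67.7% of the 11215 genes tested (32% higher in the ovulation window and 35.6% lower). The difference, ovulation minus maturation on log2 scales, was 5.01 for Hsd11b2 (SE 0.365, limma adjusted p = 8.3e-16), whose direction was opposite in the windows, and 2.93 for Hsd17b11 (SE 0.146, adjusted p = 7.8e-20), which rose in both. It was 2.49 for Akr1c14 (limma adjusted p = 7.3e-17), 1.20 for Cyp1b1 (adjusted p = 0.0030) and 0.72 for Srd5a3 (adjusted p = 0.0016), which passed in the ovulation window alone. For Srd5a1 it was -0.24 (SE 0.242, limma adjusted p = 0.39), which does not show that the windows acted alike. The windows differ in unit, in the genes listed and in control treatment as well as in stage, and these cannot be told apart here.

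**Figure D3:**
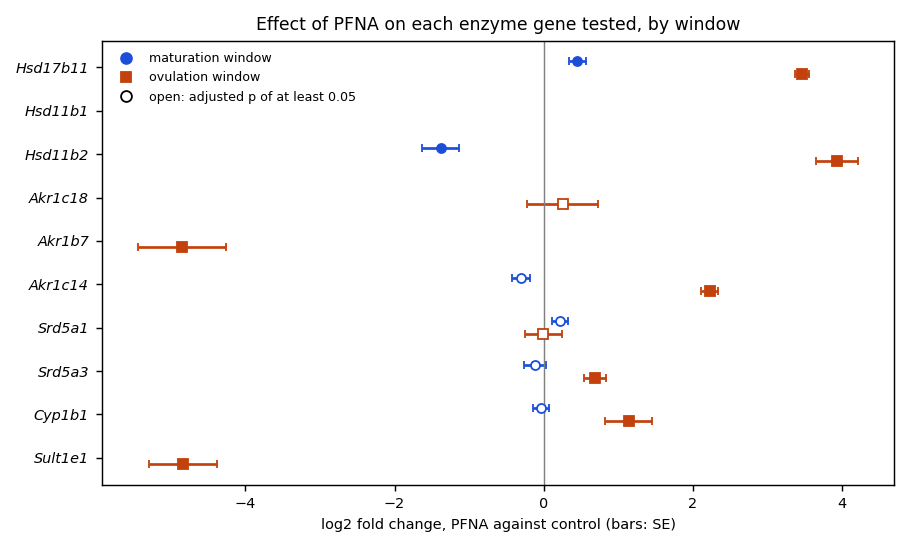
Log2 fold change of PFNA against control for each enzyme gene tested, in the maturation window (circles, log2(TPM + 1) scale) and the ovulation window (squares, edgeR), with bars for the SE. Filled symbols passed at an adjusted p under 0.05. Hsd11b2 lies on opposite sides of 0, at -1.38 and 3.94.

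Enzymes were also set against a partner within each library, as log2((a + 1)/(b + 1)). The added 1 dominates where a gene is near 0, as for Akr1c18, whose ratio is then close to the inverse of the partner's level. Ratios were tested by permutation of libraries, two-sided, with adjustment over 6 tests. Akr1c18 was set against Cyp11a1, which makes pregnenolone and so opens the route to progesterone. The ratio rose by 1.63 with PFNA in the ovulation window (adjusted permutation p = 0.00022, 8 of 11 libraries above all controls), where Cyp11a1 itself fell from 754 to 342 CPM (edgeR adjusted p = 0.0014). In the maturation window it fell by 1.24 (adjusted permutation p = 0.00776, 3 of 10 below all controls and replicate 1 above them), and by 1.61 without replicates 1 and 2; with 0.1 added in place of 1 it fell by 2.32. Cyp11a1 itself went from 128 to 205 TPM (log2 fold change 0.59, limma adjusted p = 0.15; 0.77 and 0.043 without replicates 1 and 2), while Akr1c18 was below the level tested, so the ratio is not a result on Akr1c18 alone.

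Srd5a1 and Cyp19a1, the aromatase that makes oestradiol, compete for testosterone. Their ratio fell by 2.19 in the ovulation window (permutation p = 1e-05, the smallest that these resamples can give, adjusted p = 6e-05), with 10 of 11 PFNA libraries below all controls. It rose by 1.21 in the maturation window (adjusted permutation p = 0.000255), with 8 of 10 above all controls, and replicates 1 and 2 were those that were not; without them it rose by 1.47. Cyp19a1 itself rose from 47.3 to 223 CPM in the ovulation window (edgeR adjusted p = 7.7e-09) and fell in the maturation window (log2 fold change -0.98, limma adjusted p = 0.0018), while Srd5a1 did not pass in either. Hsd17b11 relative to Hsd17b1, which activates oestrone to oestradiol, rose by 1.34 in the ovulation window (adjusted permutation p = 0.00022) and by 1.18 in the maturation window (adjusted permutation p = 0.000756), with 6 of 11 and 8 of 10 PFNA libraries above all controls; without maturation replicates 1 and 2 the latter was 1.51. Hsd17b1 rose from 69.3 to 281 CPM in the ovulation window and fell from 4561 to 3006 TPM in the maturation window.

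**Figure D4:**
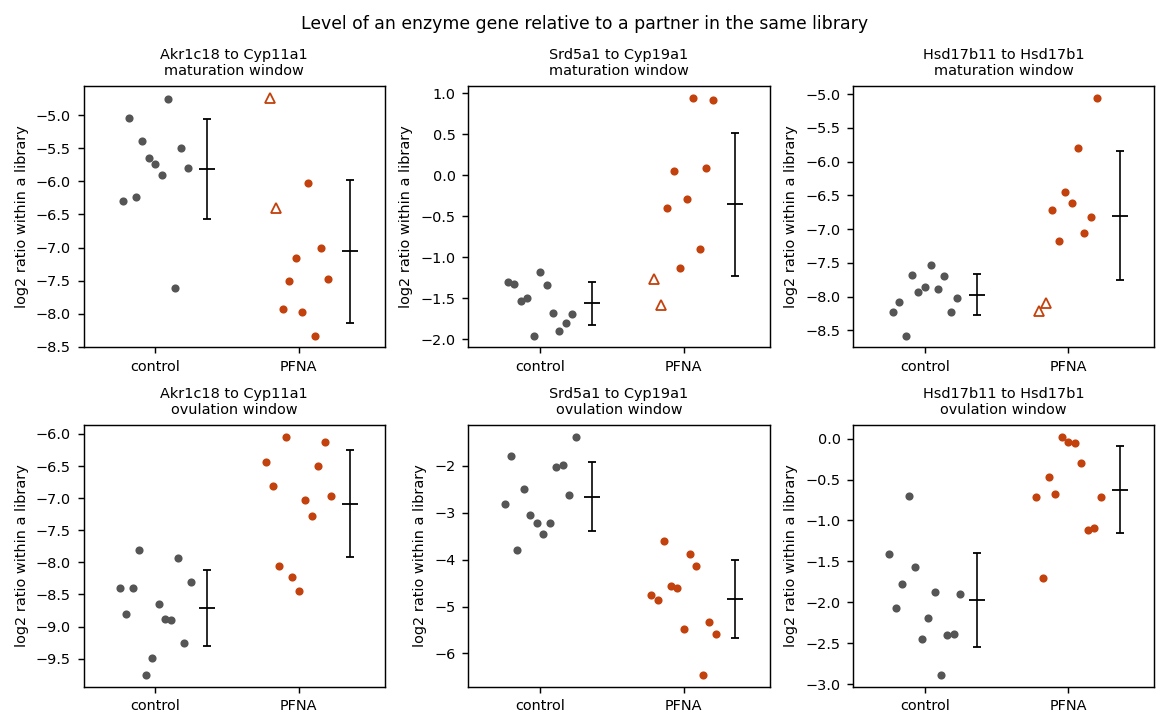
Log2 ratio of an enzyme gene to its partner within each library, for 3 ratios in the maturation window (top) and the ovulation window (bottom). Each point is a library, triangles mark PFNA replicates 1 and 2 of the maturation window, and bars give the mean and SD. The ratio of Srd5a1 to Cyp19a1 rose by 1.21 in the maturation window and fell by 2.19 in the ovulation window.

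Pairs of enzymes were compared across the libraries within each group. None of 100 pairs across libraries of 1 group passed the adjusted permutation test of Pearson's r or Spearman's rho, and 15 had an unadjusted p of Pearson's r under 0.05; groups of this size leave room for relations that did not pass. The smallest p was for Hsd17b11 and Hsd11b2 in the 10 maturation PFNA libraries (Pearson r = -0.865, permutation p = 0.00366, adjusted p = 0.196; Spearman rho = -0.649, permutation p = 0.0498, adjusted p = 0.604). Without the 2 libraries farthest from the median of Hsd17b11 r was -0.314, so the relation rests on those libraries.

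Related genes were counted from lists of the same pathways, to be read against all genes tested, of which 73.2% passed in the ovulation window (38% higher and 35.2% lower) and 29.4% in the maturation window. Without maturation PFNA replicates 1 and 2, where 37.9% of all genes passed, the maturation counts below were the same for all lists but that of cofactor supply. Of 5 other Hsd17b genes tested in the ovulation window 2 were higher and 2 lower. Hsd17b1 rose with a log2 fold change of 2.02, as did the mitochondrial Hsd17b10 (1.01), and the peroxisomal Hsd17b4 (-0.40) and Hsd17b12 (-0.24), an enzyme of fatty acid elongation, fell. During maturation 1 of 5 was higher, Hsd17b4 (0.19), and 2 were lower, Hsd17b1 (-0.72) and Hsd17b12 (-0.30). Of 8 other aldo-keto reductases tested in the ovulation window 4 were higher and 2 lower, with a median log2 fold change of 0.45 against 0.0393 over all genes. Akr1c21 went from 0.0135 CPM, resting on 2 counts over the 12 control libraries, to 2.01 CPM with PFNA, and no fold is given for it. It could enter the test only through its level with PFNA, and it is among the 4 higher and in the median. That count and median are thus not a result on the list. Akr1c13, neighbour in family to Akr1c14, went from 1.82 to 16.6 CPM, but 24.2% of its 50-base stretches are shared with Akr1c12. Akr1b8, a close relative of Akr1b7, fell with it, from a control mean of 100.3 ± 29.9 CPM (SD, n = 12) to a mean of 33.2 ± 9.04 CPM with PFNA (SD, n = 11), and rose in the maturation window from 20.3 to 32.1 TPM (limma adjusted p = 0.0122).

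Of 14 genes of steroid hydroxylation, conjugation and release 7 were higher and 2 lower in the ovulation window (background 38% and 35.2%, and 73.2% in either direction). In the maturation window 1 of 7 was higher (background 13.3%, and 29.4% in either direction). Among the higher genes of the ovulation window, Srd5a2, Sult1d1, Ugt1a7c and Sult4a1 averaged 0.370, 0.188, 0.593 and 0.780 CPM in controls. Genes so low can enter the test through their level with PFNA, so the count of higher genes is not a result on the list. Cyp2s1, a P450 of fatty acids and retinoids, rose from 5.37 to 40.9 CPM. Cbr3, a carbonyl reductase, fell from 14.2 to 2.92 CPM in the ovulation window and rose from 3.84 to 6.55 TPM in the maturation window (limma adjusted p = 0.0358). Of 14 genes that supply cofactors to these enzymes 4 were higher and 7 lower in the ovulation window, near the 73.2% of all genes that passed. Papss2, which makes the sulfate donor used by Sult1e1, rose from a control mean of 44.9 ± 6.75 CPM (SD, n = 12) to a mean of 214 ± 53.5 CPM with PFNA (SD, n = 11; edgeR adjusted p = 4.8e-15), as did Papss1 (47.2 to 82.4 CPM), while Sult1e1 fell. H6pd, which supplies NADPH to the product of Hsd11b1, fell from 152.6 to 57.1 CPM (edgeR adjusted p = 6.8e-12). During maturation 3 of 14 were higher and 3 lower, and Papss1 and Papss2 were among the lower, with log2 fold changes of -0.16 and -0.38; without PFNA replicates 1 and 2 Papss2 no longer passed, which left 2 lower.

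The 8 steroid receptor genes tested all passed in the ovulation window, as 73.2% of all genes did, 4 higher and 4 lower. Pgr, the progesterone receptor that hCG induces, fell from 898.7 to 65.3 CPM (adjusted p = 1.9e-08 by edgeR, log2 fold change -3.78 ± 0.421, SE), below all controls in 11 of 11 libraries. Esr2, the oestrogen receptor of granulosa cells, rose from 32.0 to 78.5 CPM, and Nr3c1, the glucocorticoid receptor, fell from 81.5 to 56.1 CPM. In the maturation window 3 of 5 receptor genes tested were higher (background 13.3%) and 1 was lower (background 16.1%). Nr3c1 was among the higher there, from 3.42 to 4.72 TPM (limma adjusted p = 0.021). Of 9 glucocorticoid receptor targets tested in the ovulation window 2 were higher (background 38%) and 6 lower (background 35.2%). Their median log2 fold change was -1.10 against 0.0393 over all genes. The list was chosen with earlier results of these data known, so this is not a test of the list. Per1 fell from 138.2 to 28.4 CPM and Sgk1 from 280.7 to 130.9 CPM, but Tsc22d3 rose from 12.2 to 27.2 CPM and Fkbp5 from 118.3 to 137.9 CPM, so the list did not move one way. During maturation 4 of 8 targets were higher (background 13.3%) and 1, Fkbp5, was lower (14.0 to 9.94 TPM, limma adjusted p = 3.3e-04). Of 5 aryl hydrocarbon receptor genes 2 were higher in the ovulation window (background 38%), with Cyp1b1 counted apart. They were Ahrr (2.13 to 4.31 CPM) and Nqo1 (0.645 to 1.51 CPM). Nqo1 was so low in controls that it can enter the test through its level with PFNA, so the count is not a result on the list. In the maturation window, where Cyp1b1 did not pass, Tiparp rose from 26.7 to 47.1 TPM, above all controls in 10 of 10 libraries (limma adjusted p = 9.8e-06). In the ovulation window, where Cyp1b1 rose, Tiparp went from 178.3 to 148.0 CPM and did not pass (edgeR adjusted p = 0.0503). Ahr and Arnt did not pass in either window.

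**Figure D5:**
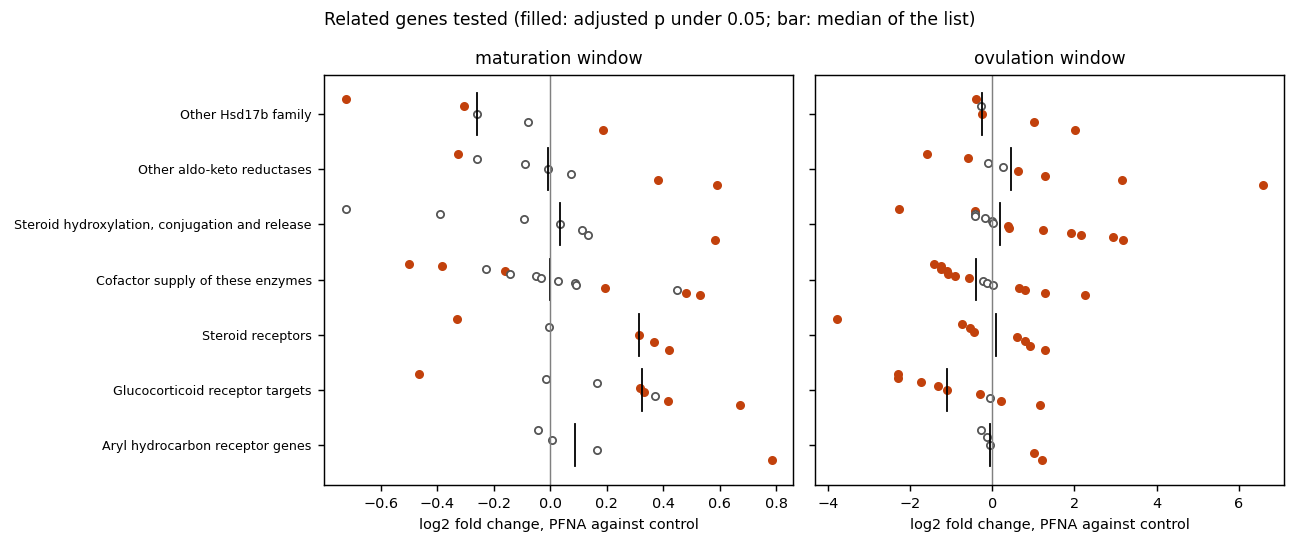
Log2 fold change of PFNA against control for the related genes tested, by list, in the maturation window (left) and the ovulation window (right), with different scales. Filled points passed at an adjusted p under 0.05, and the bar is the median of the list. The point farthest right is Akr1c21, whose control level rests on 2 counts.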

How the data were processed

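Poly-A RNA of follicles was sequenced, per the labels' protocols. The submitters' processing notes name Partek, Bowtie2 and HISAT2, with no version; their roles, the strand setting and the annotation are not given in the sources used here. For the ovulation window the authors deposited a table read here as estimated counts; 9.82% of its values lay more than 0.01 from a whole number, and all were rounded. For the maturation window the values the authors deposited sum to 1000000 in each library and are lower for longer transcripts (607 genes with 1 transcript had a log2 slope of -0.952), and were taken as TPM. A column was joined to maturation control replicate 6 across a 1-letter difference in its name. Positions of the 10 genes, as given for the maturation window, match GENCODE M21 on GRCm38.

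The ovulation window was tested with edgeR 4.0.16 (quasi-likelihood, filterByExpr, TMM, robust), and the maturation window with limma 3.58.1 (trend, robust) on log2(TPM + 1) for genes averaging 1 TPM or more, a scale that understates changes of low genes. The difference between windows used limma within each table, on log2(CPM + 1) and log2(TPM + 1), with Satterthwaite degrees of freedom. P-values were adjusted over all genes (Benjamini-Hochberg) and called under 0.05. Permutation tests used 100000 resamples. The edgeR, limma, DESeq2 and between-window fits were run on simulated data in which few genes changed, raised and lowered alike. Most genes passed in the ovulation window, so the fits were not tested under that setting. DESeq2, used only as an alternative, made more false calls there than the limit set for the other fits. The enzymes, ratios and related lists were chosen with earlier results of these data known. Named were all 10 enzymes, the ratio partners, and up to 3 higher and 3 lower genes of smallest p per list and window, of which a part is given, plus the 3 genes most correlated with the enzyme of smallest p in each window. The ratio of Sult1e1 to Sts was not analysed here.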

Additional observations from a re-analysis of the deposited data

Results flagged for a closer look

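The PFNA effect, as a log2 fold change in the ovulation window minus that in the maturation window, differed by the test of the difference itself for 5 enzymes. The difference was 5.01 for Hsd11b2, which fell in the maturation window and rose in the ovulation window, and 2.93 for Hsd17b11, which rose in both. It was 2.49 for Akr1c14, 1.2 for Cyp1b1 and 0.723 for Srd5a3. Without maturation PFNA replicates 1 and 2 the values were 5.37, 2.78, 2.54, 1.18 and 0.66 in the same order. No library lay far enough from its group to be marked as an outlier among 14 values searched in the maturation PFNA group, where chance marks about 1 in 20. The rule sets the gap to the next library against the range of the group. Libraries that lie apart together, as PFNA replicates 1 and 2 did for Hsd11b2, can thus go unmarked, so the search does not show that the group was uniform.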

How the results depend on the processing

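The 7 calls of the ovulation window held without each library in turn (7 to 7 enzymes; 9654 to 10029 genes over the whole table), and 3646 genes passed when at least 2-fold was also asked. In the maturation window 2 to 3 enzymes and 3586 to 4588 genes passed without each library in turn, 4 enzymes passed without PFNA replicates 1 and 2, and with at least 2-fold asked 1 enzyme (Hsd11b2) and 654 genes passed. The sign of Srd5a1 in the ovulation window, which did not pass, turned with median-ratio size factors (0.022), DESeq2 (0.022), a replicate block (0.044) and in 10 of 23 fits without a library (-0.095 to 0.092), and that of Cyp1b1 in the maturation window in 3 of 21 fits (-0.090 to 0.0079); the cause was not tested. Deviations of same-numbered control and PFNA libraries had correlations of -0.193 to 0.073 over 11 ovulation pairs and -0.138 to 0.168 over 9 maturation pairs. These were not compared with differently numbered pairs, so they do not show whether same-numbered libraries shared an animal or culture. With the replicate block 9298 genes and 7 enzymes passed in the ovulation window, and 2891 genes and 2 enzymes in the maturation window. In the ovulation window Hsd11b1 averaged 0.541 CPM in controls and 0.352 CPM with PFNA, and Akr1c18 0.922 and 1.08 CPM. Counts are few at such levels, and the part of depth was not tested. The counts of related lists without maturation PFNA replicates 1 and 2 were added after seeing the data.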
